A study of Mus musculus with 34 samples.

Results

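The 33 genes described here are textbook markers of T, B and NK lymphocytes, read in dendritic cells (DCs) that had been sorted from mouse spleen. They comprise 13 T lineage genes (Cd3e, Cd3d, Cd3g, Cd2, Thy1, Cd5, Cd28, Il7r, Bcl11b, Lef1, Lat, Cd6, Cd7), 11 B lineage genes (Cd79a, Cd79b, Ms4a1, Pax5, Ebf1, Vpreb3, Fcrla, Cd22, Blk, Jchain, Fcer2a) and 9 NK lineage genes (Ncr1, Klrb1c, Gzma, Gzmb, Nkg7, Prf1, Klrd1, Eomes, Klre1). Members were listed by name, with earlier results of these data already known. Each was read from the probe set annotated to that gene alone. All 33 had exactly 1 such probe set among the 22180 genes tested. The study profiled DCs of C57BL/6 mice on 34 arrays in 11 groups. In one experiment label, CD8+ and CD8- DCs came from wild-type (WT) mice and from mice labelled Mst1/2-KO, with 4 arrays in each of the 4 groups. Mst1 and Mst2 are kinases of the Hippo pathway. In a second label, total DCs came from WT (4 arrays) and Mst1/2-KO mice (3 arrays). In experiment 1, Rag1-KO DCs (4 arrays) and Rag1-KO p38-KO DCs (3 arrays) had both been stimulated with anti-CD40, an antibody that engages a co-stimulatory receptor, so both genotypes lacked Rag1. Experiment 2 had 1 WT and 2 Rag1-KO arrays after anti-CD40, plus 1 Rag1-KO array without stimulation. The labels used here state neither age, nor the promoter or Cre behind each deletion, nor whether animals were pooled.

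DCs share the spleen with far larger numbers of lymphocytes, and a sort can carry some along. T cells signal through the CD3 chains and the adaptor Lat, B cells through Cd79a and Cd79b, and NK cells kill with perforin (Prf1) and granzymes. Rag1 cuts antigen-receptor genes for recombination, so Rag1-KO mice make no mature T or B cells but keep NK cells. Several of the listed genes are also known from DCs or their precursors, so a signal by itself does not name a lymphocyte. In sorted bulk RNA, fewer cells of a type and less RNA per cell cannot be told apart.

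Values are log2 signals, so a difference of 1 is a doubling of signal. They carry a constant of their own for each probe set and experiment label, so levels were compared only within a label and never between genes. Stk4, which encodes Mst1, was 1.81-fold, 1.7-fold and 2.13-fold lower in Mst1/2-KO CD8+, CD8- and total DCs (adjusted p = 0.000166, 0.000211 and 0.00154), with no overlap of groups. Mapk14, which encodes p38 alpha, read 8.38 to 8.54 on the arrays labelled Rag1-KO p38-KO and 7.88 to 8.48 on the Rag1-KO arrays (adjusted p = 0.657), so it did not check that label, and the position of its probes was not analysed here. Stk3 (Mst2) and Rag1 were not analysed here. Subset markers followed the labels. In WT cells all 7 measured CD8+ DC markers were higher in CD8+ DCs (Cd8a by 43.1-fold) and all 7 CD8- DC markers were lower in them (Clec4a4 by 66.4-fold). A detection limit was not used here, so whether a low signal stands for any transcript cannot be said. The labels do not say whether each array holds RNA of its own mouse, so p-values measure only the spread between arrays, which may be technical. A gene was called at a limma p under 0.05 after Benjamini-Hochberg adjustment over all 22180 genes. Counts of members at an unadjusted p under 0.05 are given without a share over all genes. Whether those counts exceed that share cannot be said.

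Some arrays stood apart in these genes. WT total DC replicate 1 was the highest of its 4 arrays in 10 of 13 T members, against 27% of all genes, and in 5 of them it lay at least 1 above every other array, against 0.117% of all genes. Its mean over the 13 T members was 6.16, compared with 5.06 to 5.34 on the other WT total arrays. WT CD8- DC replicate 4 was the highest of its group in 7 of 13 T and 6 of 9 NK members, against 22.4% of all genes. Its NK mean was 6.81, compared with 5.93 to 6.14 on the other WT CD8- arrays. It lay at least 1 above every other array in 2 T members (Cd2, Thy1) and only 1 NK member (Gzma), against 0.0631% of all genes. WT CD8- DC replicate 1 was the highest of its group in 8 of 11 B members, against 27.4% of all genes (B mean 5.49, others 5.21 to 5.44), and WT CD8+ DC replicate 1 lay at least 1 above the others in 2 B members, Fcrla and Jchain, against 0.158% of all genes. Values without the first 2 of these arrays are given beside the comparisons that use them. In experiment 1, 60.1% of genes held exactly the same value on at least 2 of the 7 arrays, compared with 0.09% to 2.28% in the other labels. For 97.9% of those genes the shared value was the median of the 7 arrays. This touched 14 of the 33 members (4 T, 7 B and 3 NK).

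**Figure D1:**
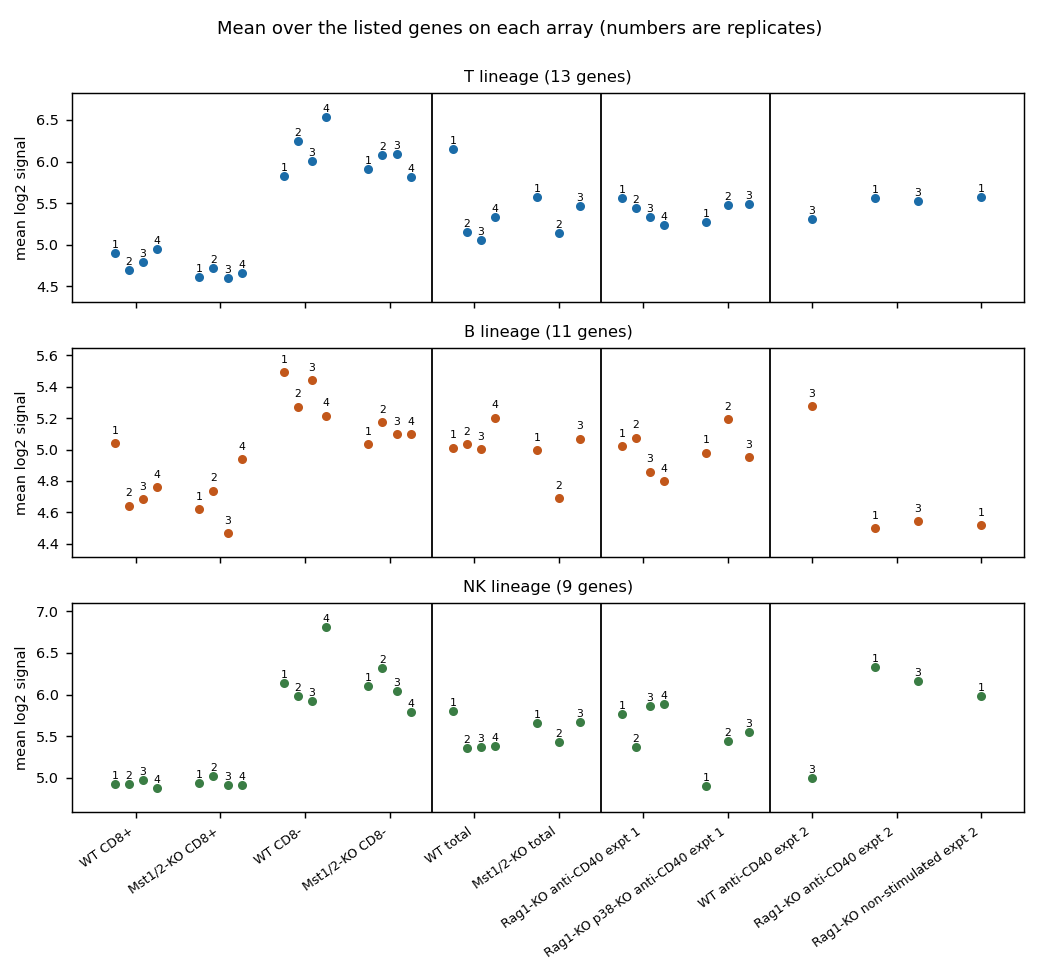
Mean log2 signal over the 13 T, 11 B and 9 NK lineage genes on each array (y axis), by group (x axis). Each point is 1 array, numbered by replicate, and vertical lines part the 4 experiment labels, across which levels cannot be compared. WT total replicate 1 (T mean 6.16) and WT CD8- replicate 4 (NK mean 6.81) lie above their groups. In experiment 2 the WT array is highest for B genes (5.28) and lowest for NK genes (5.0).

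Promoter sequences were at hand for 24 of the 33 members (RefSeq, GRCm38.p6, from 250 bases before to 50 after the gene start). The sequences printed are those of 5 NK genes whose signals were higher in Rag1-KO than in WT DCs, and 3 B genes that carry the B lineage results. Capitals mark the RUNX motif TGTGGT (or ACCACA on the other strand), bound by the RUNX factors of lymphocytes, and the EBF core CCCNNGGG, bound by the B lineage factor Ebf1. Both strands were searched for all motifs.
Ncr1 (chr7:4337465-4337764, + strand, first of 2 entries): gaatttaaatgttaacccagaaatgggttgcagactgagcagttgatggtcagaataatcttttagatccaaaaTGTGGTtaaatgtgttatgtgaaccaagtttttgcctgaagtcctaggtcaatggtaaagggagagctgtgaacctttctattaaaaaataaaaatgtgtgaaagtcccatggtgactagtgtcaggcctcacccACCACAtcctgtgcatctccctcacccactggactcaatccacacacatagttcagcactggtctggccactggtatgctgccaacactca
Klrb1c (chr6:128788592-128788891, - strand): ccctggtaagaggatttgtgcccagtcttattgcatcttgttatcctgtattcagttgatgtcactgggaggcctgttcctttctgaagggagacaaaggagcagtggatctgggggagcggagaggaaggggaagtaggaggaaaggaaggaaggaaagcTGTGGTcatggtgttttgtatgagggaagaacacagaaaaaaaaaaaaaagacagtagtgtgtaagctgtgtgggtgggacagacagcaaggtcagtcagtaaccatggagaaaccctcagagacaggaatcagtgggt
Gzmb (chr14:56262285-56262584, - strand): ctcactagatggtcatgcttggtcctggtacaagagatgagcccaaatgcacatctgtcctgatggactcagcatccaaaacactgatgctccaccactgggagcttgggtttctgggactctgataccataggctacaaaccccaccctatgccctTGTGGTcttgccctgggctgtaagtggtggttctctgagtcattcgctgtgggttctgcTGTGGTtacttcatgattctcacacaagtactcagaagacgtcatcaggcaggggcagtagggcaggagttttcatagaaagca
Nkg7 (chr7:43436888-43437187, + strand): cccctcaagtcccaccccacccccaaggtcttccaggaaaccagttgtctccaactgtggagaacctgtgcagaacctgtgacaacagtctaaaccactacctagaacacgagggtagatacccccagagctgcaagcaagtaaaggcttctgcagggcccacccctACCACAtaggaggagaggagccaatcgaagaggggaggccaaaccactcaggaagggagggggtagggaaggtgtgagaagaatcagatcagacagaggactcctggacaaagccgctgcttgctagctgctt
Klre1 (chr6:129577963-129578262, + strand, first of 2 entries): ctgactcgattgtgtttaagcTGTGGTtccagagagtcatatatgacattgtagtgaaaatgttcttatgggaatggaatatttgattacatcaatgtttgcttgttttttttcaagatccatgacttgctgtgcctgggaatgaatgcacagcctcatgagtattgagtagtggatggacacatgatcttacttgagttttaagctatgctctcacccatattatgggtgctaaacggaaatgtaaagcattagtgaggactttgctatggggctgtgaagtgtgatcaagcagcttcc
Jchain (chr5:88527848-88528147, - strand): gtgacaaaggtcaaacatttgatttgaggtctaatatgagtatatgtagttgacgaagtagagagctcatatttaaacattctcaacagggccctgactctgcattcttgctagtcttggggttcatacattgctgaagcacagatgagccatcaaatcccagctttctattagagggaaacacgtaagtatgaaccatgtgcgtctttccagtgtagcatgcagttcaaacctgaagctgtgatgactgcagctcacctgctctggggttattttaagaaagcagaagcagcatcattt
Cd79a (chr7:24897247-24897546, + strand): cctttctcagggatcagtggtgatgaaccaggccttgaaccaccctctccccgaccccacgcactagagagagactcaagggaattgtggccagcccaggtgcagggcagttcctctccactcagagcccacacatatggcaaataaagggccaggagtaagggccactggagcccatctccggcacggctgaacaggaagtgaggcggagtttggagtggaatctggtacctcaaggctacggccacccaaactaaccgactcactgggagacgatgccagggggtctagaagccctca
Cd22 (chr7:30878979-30879278, - strand): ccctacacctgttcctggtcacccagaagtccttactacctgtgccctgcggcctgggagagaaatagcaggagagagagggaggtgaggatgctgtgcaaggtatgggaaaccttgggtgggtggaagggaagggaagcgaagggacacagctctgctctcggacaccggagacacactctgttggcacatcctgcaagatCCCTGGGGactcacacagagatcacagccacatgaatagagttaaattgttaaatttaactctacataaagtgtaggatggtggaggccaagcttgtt
The RUNX motif was in 7 of the 8 NK promoters searched, all but that of Eomes, compared with 2 of 8 T promoters (Il7r, Lat), 3 of 8 B promoters (Ebf1, Fcer2a, Vpreb3) and 16.8% of 32851 mouse promoters of this length. Ncr1 and Gzmb each held 2 copies. The EBF core was in 1 promoter of each lineage (Bcl11b, Cd22, Prf1) and in 13.7% of all promoters. The octamer ATGCAAAT of B cell genes was in Vpreb3 alone (1.7% of all), the T-box motif TCACACC in Nkg7 alone (4% of all), and the E-box CANNTG in 7 of 8 promoters of each lineage (72.3% of all). Matches of different motifs may overlap one another. These matches describe letters in a window, not bound sites, and were not tested.

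The comparison of CD8+ with CD8- DCs shows in which sorted subset each lymphoid gene read higher. Which cells of a sort gave the signal was not tested. T and NK genes were read lower in CD8+ than in CD8- DCs, and B genes went both ways. In WT cells 11 of 13 T members, 4 of 11 B members and 7 of 9 NK members were lower in CD8+ DCs, and 2 B members, Ms4a1 and Fcrla, were higher. That is 24 of 33 members called, against 21% of all genes (10% lower and 11% higher). In Mst1/2-KO cells 10 T, 4 B and 5 NK members were lower and the same 2 B members higher, 21 in all, against 19.2% of all genes (9.3% lower and 9.93% higher). Of these, 20 members were called in the same direction in both genotypes (18 lower, 2 higher), which is 83.3% of the WT calls and 95.2% of the Mst1/2-KO calls. The median difference over the T members was -0.71 in WT and -0.85 in Mst1/2-KO, compared with 0.025 and 0.0263 over all genes. It was -0.77 and -0.64 over the NK members, and -0.17 and -0.07 over the B members. The arrays of the subsets did not overlap in 10 T, 6 B and 6 NK members in WT, against 22.4% of all genes, and in 11 T, 6 B and 5 NK members in Mst1/2-KO, against 21.9%.

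**Figure D2:**
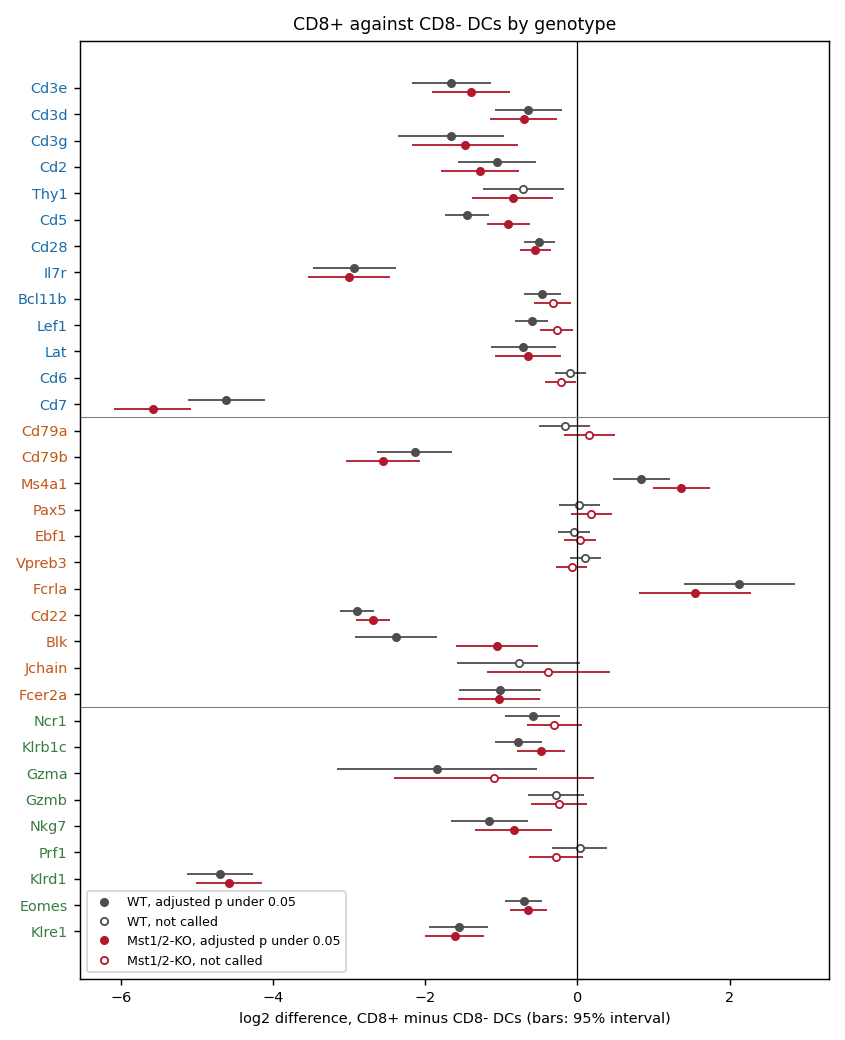
Difference in log2 signal between CD8+ and CD8- DCs (x axis; below 0 is lower in CD8+ DCs) for each of the 33 genes (y axis; blue T, orange B and green NK names), in WT (grey) and Mst1/2-KO (red) cells, with 95% intervals from limma. Filled points passed adjusted p under 0.05. All 13 T genes lie below 0 in both genotypes, and Ms4a1 and Fcrla are the called genes above 0.

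Cd7, a surface protein of T and NK cells, differed most among the T genes. It read 8.0, 6.71, 7.19 and 8.33 on the WT CD8+ arrays and 12.07, 12.25, 12.27 and 12.10 on the WT CD8- arrays. The 2 groups lay far apart, with the CD8- arrays nearly alike and the CD8+ arrays spread over more than 1 unit. The difference was -4.62 ± 0.24 (SE), 24.5-fold lower in CD8+ DCs (adjusted p = 1.18e-10). In Mst1/2-KO cells the arrays read 6.89, 6.82, 6.42 and 6.61 (CD8+) and 12.32, 12.28, 12.23 and 12.23 (CD8-), a 47.9-fold difference (adjusted p = 1.41e-11).

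Il7r, the receptor chain for interleukin 7 on T cells and lymphoid precursors, followed. Its values were 5.24, 5.81, 5.45 and 5.85 in WT CD8+ and 7.77, 8.82, 8.7 and 8.79 in WT CD8- DCs, with replicate 1 the lowest of the latter. It was 7.63-fold lower in CD8+ DCs (-2.93 ± 0.26, adjusted p = 1.12e-07). The Mst1/2-KO arrays gave 4.76, 5.11, 4.97 and 4.35 and 8.14, 8.11, 7.88 and 7.06, again without overlap (-3.0 ± 0.26, adjusted p = 9.45e-08).

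The CD3 chains, which carry the T cell receptor signal, were all lower in CD8+ DCs. Cd3e read 3.9, 3.62, 3.94 and 4.11 in WT CD8+ DCs and 4.9, 5.54, 5.4 and 6.35 in WT CD8- DCs, and 3.7, 4.2, 4.01 and 3.73 against 5.35, 5.35, 5.77 and 4.75 in Mst1/2-KO cells. For Cd3g the arrays gave 3.6, 3.8, 3.42 and 3.72 against 4.44, 5.59, 4.92 and 6.25 in WT, and 3.34, 3.32, 3.2 and 3.25 against 4.53, 5.78, 4.65 and 4.04 in Mst1/2-KO. In both genes the CD8+ arrays lay close together, the CD8- arrays were scattered, and WT CD8- replicate 4 was the highest. Their differences were -1.65 ± 0.24 (adjusted p = 5.91e-05) and -1.66 ± 0.33 (adjusted p = 0.00112) in WT, with -1.4 ± 0.24 (adjusted p = 0.000362) and -1.47 ± 0.33 (adjusted p = 0.00334) in Mst1/2-KO. Cd3d read 4.37, 3.97, 4.03 and 4.21 against 4.25, 5.18, 4.5 and 5.24 in WT, where CD8- replicate 1 fell among the CD8+ arrays, and 3.76, 3.79, 4.09 and 3.79 against 4.34, 5.02, 4.72 and 4.17 in Mst1/2-KO. Its difference was -0.64 ± 0.21 in WT (adjusted p = 0.0336) and -0.71 ± 0.21 in Mst1/2-KO (adjusted p = 0.0212), and each of these calls ended when any of 5 single arrays was left out.

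Cd5 dampens antigen-receptor signals in T cells. It read 6.5, 6.37, 6.5 and 6.73 in WT CD8+ and 8.3, 7.73, 8.08 and 7.8 in WT CD8- DCs, 2.73-fold lower in the former (adjusted p = 2.54e-07). The Mst1/2-KO arrays read 6.32, 6.41, 6.02 and 6.65 and 7.14, 7.35, 7.17 and 7.37, a 1.87-fold difference (adjusted p = 7.17e-05). In both genotypes every CD8+ array lay below every CD8- array. Cd2, an adhesion receptor of T and NK cells, read 4.79, 3.73, 4.46 and 4.24 against 5.09, 5.16, 4.94 and 6.24 in WT and 4.31, 4.06, 3.95 and 4.16 against 5.15, 5.38, 5.72 and 5.33 in Mst1/2-KO. Its differences were -1.05 ± 0.24 (adjusted p = 0.0038) and -1.28 ± 0.24 (adjusted p = 0.000809), with no overlap of subsets. Cd28, the co-stimulatory receptor of T cells, read 4.68, 4.62, 4.39 and 4.49 against 4.87, 5.26, 4.9 and 5.16 in WT and 4.38, 4.32, 4.42 and 4.52 against 4.96, 5.08, 4.83 and 4.96 in Mst1/2-KO. The gap was small and steady, -0.50 ± 0.10 (adjusted p = 0.000728) and -0.55 ± 0.10 (adjusted p = 0.000317).

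The remaining T genes differed by under 1 on the log2 scale. Lat, the adaptor below the T cell receptor, read 4.92, 5.0, 5.04 and 5.11 against 5.11, 6.34, 5.35 and 6.11 in WT and 5.29, 5.01, 4.99 and 5.45 against 5.87, 5.58, 6.0 and 5.89 in Mst1/2-KO. The subsets overlapped in WT, where 2 CD8- arrays were high, and stood apart in Mst1/2-KO (-0.71 ± 0.20, adjusted p = 0.0182, and -0.65 ± 0.20, adjusted p = 0.0333). The WT call was lost without CD8- replicate 2 or without CD8- replicate 4, and the Mst1/2-KO call without any of 5 single arrays. Lef1 and Bcl11b, transcription factors of T cell development, passed the threshold in WT. Lef1 read 3.77, 3.82, 3.94 and 3.68 against 4.26, 4.37, 4.29 and 4.68 (-0.60 ± 0.10, adjusted p = 0.000263), and Bcl11b 4.29, 3.94, 4.26 and 4.21 against 4.49, 4.61, 4.57 and 4.88 (-0.46 ± 0.12, adjusted p = 0.00692). In Mst1/2-KO cells their differences were -0.27 ± 0.10 (adjusted p = 0.0812) and -0.32 ± 0.12 (adjusted p = 0.0622) (for Bcl11b 0.045 with the replicate number as a block). Both were called in Mst1/2-KO after quantile (adjusted p = 0.0346 and 0.0378) or cyclic loess normalization (adjusted p = 0.0277 and 0.023), and Bcl11b also among genes above the median gene (adjusted p = 0.0395). The subset difference itself was not called as differing between the genotypes for either gene (adjusted p = 0.487 and 0.878). Thy1, a surface glycoprotein of T cells, was called in Mst1/2-KO (4.79, 5.14, 5.21 and 5.37 against 5.54, 5.63, 6.4 and 6.34, -0.85 ± 0.25, adjusted p = 0.0236). In WT it read 5.03, 5.14, 5.21 and 4.99 against 5.51, 5.49, 5.45 and 6.76, a difference of -0.71 ± 0.25 (adjusted p = 0.0568, and 0.0296 with the block). Its Mst1/2-KO call was lost without CD8+ replicate 1, without CD8- replicate 3 or without CD8- replicate 4. Cd6, a co-receptor related to Cd5, was not called (-0.09 ± 0.10 in WT, adjusted p = 0.613; -0.22 ± 0.10 in Mst1/2-KO, adjusted p = 0.137). Left without WT CD8- replicate 4, 9 T members were lower in WT CD8+ DCs in place of 11, all 13 stayed below 0 and the median was -0.58.

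**Figure D3:**
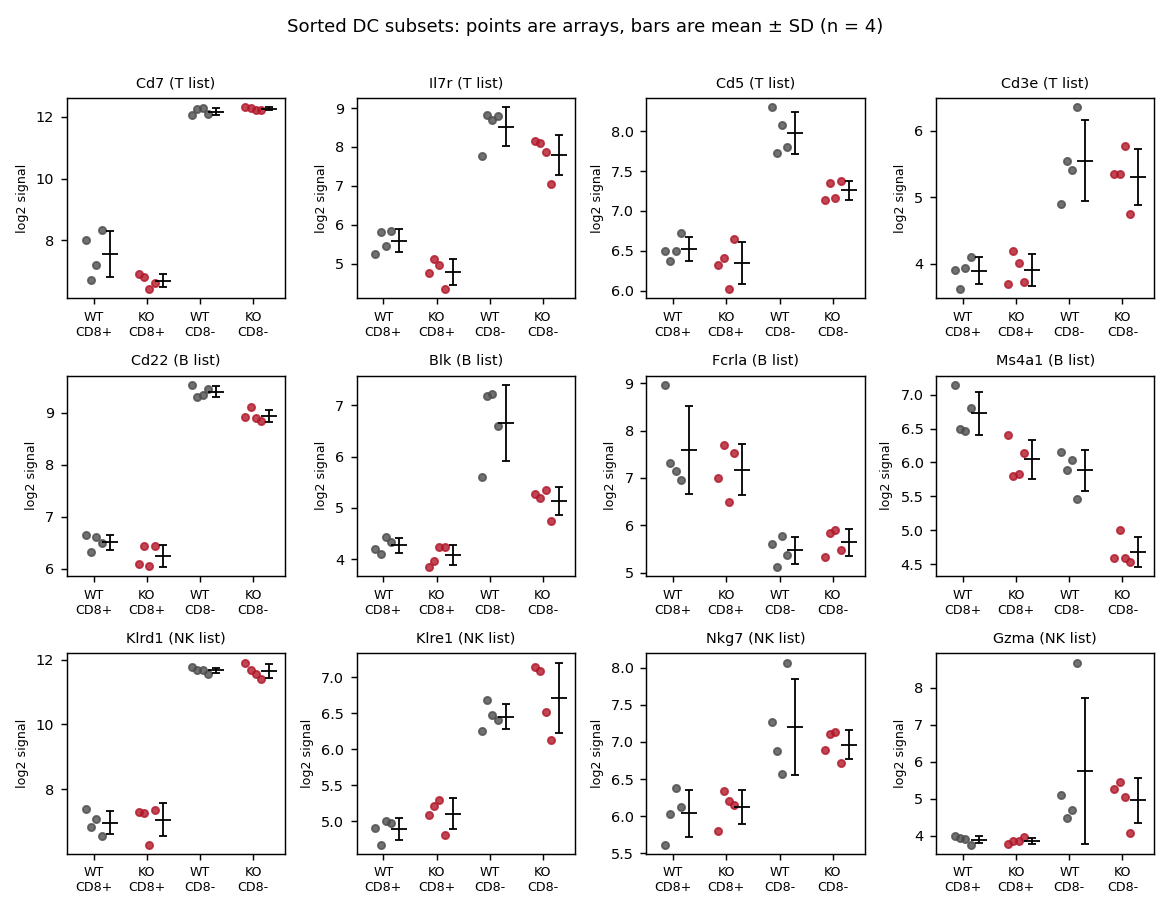
Log2 signal (y axis) of 12 of the genes in the sorted DC subsets (x axis; WT grey, Mst1/2-KO red). Points are arrays and bars are mean ± SD (n = 4). Cd7 and Klrd1 show the widest gap between subsets, Ms4a1 and Fcrla run the other way, and Gzma is high on a single WT CD8- array (8.68).

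Among B genes the signal receptor chains, inhibitory receptors and markers of plasma cells did not move as 1 group. Cd22, an inhibitory lectin of B cells, read 6.64, 6.32, 6.6 and 6.49 in WT CD8+ and 9.53, 9.3, 9.33 and 9.45 in WT CD8- DCs, 7.42-fold lower in CD8+ DCs (adjusted p = 1.53e-12). In Mst1/2-KO cells it read 6.09, 6.44, 6.05 and 6.43 against 8.91, 9.11, 8.89 and 8.84, 6.45-fold lower (adjusted p = 5.58e-12). All 4 groups were tight, and the subsets lay over 2 units apart. Cd79b, a signalling chain of the B cell receptor, read 5.6, 5.16, 5.66 and 5.29 against 7.9, 7.22, 7.79 and 7.35 in WT (-2.14 ± 0.23, adjusted p = 1.46e-06). The Mst1/2-KO arrays gave 5.1, 5.17, 4.7 and 6.06 against 7.47, 8.0, 7.78 and 8.01 (-2.56 ± 0.23, adjusted p = 1.75e-07). Its partner chain Cd79a was not called (-0.17 ± 0.16 and 0.16 ± 0.16, adjusted p = 0.565 and 0.589), so of the 2 chains of the receptor only Cd79b passed the test. Whether the 2 chains differ from each other was not tested.

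Blk, a Src-family kinase of B cells, read 4.2, 4.1, 4.44 and 4.34 against 5.61, 7.18, 7.22 and 6.61 in WT, 5.22-fold lower in CD8+ DCs (adjusted p = 1.35e-06). In Mst1/2-KO cells it read 3.85, 3.97, 4.24 and 4.24 against 5.26, 5.19, 5.34 and 4.73, 2.08-fold lower (adjusted p = 0.00589). The subsets did not overlap in either genotype. Fcer2a, the low-affinity IgE receptor, read 3.5, 4.03, 3.9 and 4.06 against 5.54, 4.71, 5.1 and 4.2 in WT (-1.01 ± 0.25, adjusted p = 0.00718) and 3.75, 4.0, 3.81 and 3.81 against 5.46, 5.17, 4.61 and 4.26 in Mst1/2-KO (-1.03 ± 0.25, adjusted p = 0.00678). Its CD8- arrays ranged over more than 1 unit in both genotypes, with replicate 1 the highest and replicate 4 the lowest.

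Ms4a1 (CD20) and Fcrla, an Fc receptor-like protein of B cells, were the 2 members higher in CD8+ DCs. Ms4a1 read 7.15, 6.49, 6.46 and 6.8 in WT CD8+ and 6.15, 5.89, 6.03 and 5.46 in WT CD8- DCs (0.84 ± 0.18, adjusted p = 0.00193), and 6.41, 5.79, 5.83 and 6.14 against 4.58, 5.0, 4.58 and 4.54 in Mst1/2-KO (1.37 ± 0.18, adjusted p = 1.51e-05). Fcrla read 8.97, 7.32, 7.15 and 6.95 against 5.61, 5.12, 5.77 and 5.37 in WT, 4.38-fold higher in CD8+ DCs (adjusted p = 0.000166), and 7.01, 7.69, 6.48 and 7.53 against 5.32, 5.83, 5.91 and 5.48 in Mst1/2-KO, 2.91-fold higher (adjusted p = 0.00346). Neither gene's subsets overlapped, and WT CD8+ replicate 1 was over 1 unit above the other arrays of its group for Fcrla. The B lineage factors Pax5 and Ebf1 and the B lineage gene Vpreb3 differed by at most 0.19 in either genotype, with adjusted p from 0.385 to 0.934. Jchain, which joins IgM and IgA polymers in plasma cells, differed by -0.77 ± 0.38 in WT (adjusted p = 0.194). Without WT CD8+ replicate 1, whose Jchain signal was 4.75 against 2.62 to 3.31 on the others, that difference was -1.22 (adjusted p = 0.00684). That array was picked after its value was seen, so this call is no support.

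Klrd1 (CD94), the shared chain of NK cell lectin receptors, had the largest difference of all members in WT cells. Its arrays read 7.4, 6.83, 7.08 and 6.57 in WT CD8+ and 11.76, 11.69, 11.67 and 11.55 in WT CD8- DCs, 26-fold lower in CD8+ DCs (adjusted p = 1.27e-11). In Mst1/2-KO cells they read 7.3, 7.27, 6.29 and 7.36 and 11.91, 11.68, 11.55 and 11.42 (24-fold, adjusted p = 2.35e-11), with CD8+ replicate 3 the lowest. Klre1, another lectin receptor of the same gene complex, read 4.91, 4.68, 5.01 and 4.98 against 6.25, 6.68, 6.48 and 6.4 in WT and 5.09, 5.22, 5.3 and 4.81 against 7.14, 7.08, 6.51 and 6.13 in Mst1/2-KO. It was 2.95-fold (adjusted p = 3.7e-06) and 3.06-fold lower in CD8+ DCs (adjusted p = 2.63e-06), with no overlap. Klrb1c (NK1.1), the classical surface marker of NK cells in this strain, read 3.99, 4.21, 4.05 and 4.16 against 4.78, 4.88, 4.99 and 4.85 in WT (-0.77 ± 0.15, adjusted p = 0.000733). In Mst1/2-KO it read 4.11, 4.01, 3.93 and 3.95 against 4.28, 5.04, 4.56 and 4.03 (-0.48 ± 0.15, adjusted p = 0.029), a call lost without any of 5 single arrays.

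Eomes, a T-box factor of NK and effector T cells, read 3.51, 3.7, 3.49 and 3.66 against 4.26, 4.22, 4.32 and 4.39 in WT and 3.63, 3.73, 3.84 and 3.45 against 4.13, 4.04, 4.49 and 4.56 in Mst1/2-KO. The subsets did not overlap, with differences of -0.71 ± 0.11 (adjusted p = 0.000131) and -0.64 ± 0.11 (adjusted p = 0.000364). Nkg7, a granule protein of killer cells, read 5.62, 6.03, 6.38 and 6.12 against 7.27, 6.88, 6.57 and 8.07 in WT and 5.8, 6.34, 6.21 and 6.15 against 6.89, 7.11, 7.13 and 6.72 in Mst1/2-KO (-1.16 ± 0.24, adjusted p = 0.00153, and -0.84 ± 0.24, adjusted p = 0.019). The Mst1/2-KO call was lost without CD8+ replicate 1, without CD8- replicate 2 or without CD8- replicate 3. Ncr1 (NKp46), an activating receptor, read 5.39, 5.1, 5.48 and 5.18 against 6.07, 5.42, 5.59 and 6.42 in WT, and the subsets overlapped (-0.59 ± 0.17, adjusted p = 0.0204). It was not called in Mst1/2-KO (-0.30 ± 0.17, adjusted p = 0.278), and the WT call was lost without any of 4 single arrays.

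Gzma, the granzyme with the widest scatter, read 3.99, 3.94, 3.91 and 3.76 in WT CD8+ and 5.12, 4.48, 4.69 and 8.68 in WT CD8- DCs. Replicate 4 alone was high, more than 3 units above the next array. The difference was -1.84 ± 0.62 (adjusted p = 0.0438), and without that array it was -0.86 ± 0.23 (adjusted p = 0.014). The call was lost without any single WT CD8+ array (adjusted p up to 0.0897). In Mst1/2-KO the difference was -1.09 ± 0.62 (adjusted p = 0.275), with an SE that pools all 4 groups, the scattered WT CD8- arrays included. With the 2 Mst1/2-KO groups fitted alone it was called (adjusted p = 0.007). Gzmb and Prf1, the other killing proteins, were not called in either genotype, with differences from -0.28 to 0.03 and adjusted p from 0.302 to 0.945. Without WT CD8- replicate 4, 6 of 9 NK members in place of 7 were lower in WT CD8+ DCs.

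Further genes of the 3 lineages came from companion lists chosen with earlier results of these data known, so they are no independent check. Over all genes 10% were called lower and 11% higher in WT, with 9.3% lower and 9.93% higher in Mst1/2-KO. Of 20 measured NK companions 13 were lower in WT CD8+ DCs and none was higher, led by Klri2 (-4.45), Klrc1 (-3.95), Xcl1 (-3.48) and Il2rb (-2.69). Klri2 and Klrc1 are lectin receptors, Xcl1 is a chemokine and Il2rb is a receptor chain for interleukins 2 and 15. In Mst1/2-KO 11 were lower and none higher. Of 18 B companions 8 were lower and 1 was higher in WT CD8+ DCs, with Spib, an ETS factor of B cells and plasmacytoid DCs, at -3.03 and the inhibitory receptor Btla at 2.56. Of 18 T companions 5 were lower and 3 higher in WT, the largest being Ctla4, an inhibitory receptor, at 2.93. In Mst1/2-KO 7 B companions were lower and 1 higher, and 4 T companions lower and 2 higher. Markers of other cells moved beside these genes. Of 10 myeloid markers 4 were lower in WT CD8+ DCs, and of 8 plasmacytoid DC markers 2 were lower and 1 was higher. In Mst1/2-KO 5 of 10 myeloid markers and 5 of 8 plasmacytoid DC markers were lower and none was higher. Their part in the result was not tested.

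Between Mst1/2-KO and WT CD8- DCs 4 members were called, all lower in Mst1/2-KO. Cd5 fell by 0.72, Ms4a1 by 1.21, Cd22 by 0.47 and Blk by 1.52 on the log2 scale, against 6.68% of all genes called (2.79% lower). These are 1 of 13 T, 3 of 11 B and 0 of 9 NK members. The NK count at an unadjusted p under 0.05 was 1 (Klrb1c, -0.40 ± 0.15, adjusted p = 0.137). The medians were -0.09 over T, -0.02 over B and -0.20 over NK members, compared with 0.0016 over all genes. Without WT CD8- replicate 4 they were 0.02, -0.07 and 0.04, so the T and NK medians changed sign, and the same number of T (1), B (3) and NK (0) members were called.

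Blk read 5.61, 7.18, 7.22 and 6.61 in WT and 5.26, 5.19, 5.34 and 4.73 in Mst1/2-KO CD8- DCs. WT replicate 1 was the lowest of its group and still above every Mst1/2-KO array (-1.52 ± 0.26, adjusted p = 0.00137, 2.87-fold lower). Ms4a1 read 6.15, 5.89, 6.03 and 5.46 in WT and 4.58, 5.0, 4.58 and 4.54 in Mst1/2-KO, also without overlap (-1.21 ± 0.18, adjusted p = 0.000505, 2.31-fold lower). For Cd22 the values were 9.53, 9.3, 9.33 and 9.45 and 8.91, 9.11, 8.89 and 8.84 (-0.47 ± 0.10, adjusted p = 0.011). For Cd5 they were 8.3, 7.73, 8.08 and 7.8 and 7.14, 7.35, 7.17 and 7.37 (-0.72 ± 0.14, adjusted p = 0.00322). In all 4 genes every Mst1/2-KO array lay below every WT array. The 4 were picked by calls on these same values, so this adds no support. Among all members the groups did not overlap in 1 of 13 T, 3 of 11 B and 0 of 9 NK members. Over all genes they did not overlap, in either direction, in 12%. The 4 calls held under every alternative run, including each array left out in turn.

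Some genes not called in CD8- DCs passed the threshold when 1 array was left out. Those arrays were picked after all 8 such runs and lay towards the other group, so these calls are no support. Il7r read 7.77, 8.82, 8.7 and 8.79 in WT and 8.14, 8.11, 7.88 and 7.06 in Mst1/2-KO (-0.72 ± 0.26, adjusted p = 0.117), and without WT replicate 1 the difference was -0.98 (adjusted p = 0.0167). Klrb1c was called without Mst1/2-KO replicate 2 (-0.59, adjusted p = 0.00261), and Lef1, at -0.33 ± 0.10 (adjusted p = 0.07), without Mst1/2-KO replicate 3 (-0.40, adjusted p = 0.0399). The antigen-receptor genes of both lineages were not called: Cd3e differed by -0.24 ± 0.24 (adjusted p = 0.699), Cd79a by -0.03 ± 0.16 (adjusted p = 0.956) and Cd79b by 0.25 ± 0.23 (adjusted p = 0.667).

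Among the companions, Icos, a co-stimulatory receptor of T cells, fell by 1.31, and Cr2, the complement receptor of B cells, fell by 1.6 in Mst1/2-KO CD8- DCs. Grap2, a T cell adaptor, rose by 1.11. In all, T companions had 1 rise and 1 fall of 18, B companions 2 rises (Bach2, Btla) and 2 falls (Cr2, Fcrl1) of 18, and NK companions 2 falls (Ccl5, Klri1) of 20. Over all genes 3.9% were called higher and 2.79% lower. Markers of DC subsets moved in the same comparison. Plasmacytoid DC markers rose in 4 of 8 cases, with a mean over the list of 7.46 to 7.9 on the Mst1/2-KO arrays against 6.62 to 7.04 on the WT arrays. CD8- DC markers fell in 4 of 7 cases and rose in 1, with a mean of 8.5 to 8.9 against 9.45 to 9.61. CD8+ DC markers rose in 4 of 7 cases and fell in 1. The mean over 3 Y-linked genes (Eif2s3y, Kdm5d and Uty) was 4.23 to 4.96 on the Mst1/2-KO CD8- arrays and 5.13 to 5.37 on the WT CD8- arrays. On the CD8+ arrays that Y-linked mean was 4.18 to 5.03 in Mst1/2-KO and 4.92 to 5.33 in WT. On the total DC arrays it was 4.82 to 4.91 in Mst1/2-KO and 4.84 to 5.15 in WT. The part of these markers and Y-linked genes in the 4 falls, or in the other genotype comparisons, was not tested.

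In CD8+ DCs no member was called for the Mst1/2 genotype, against 0.888% of all genes. At an unadjusted p under 0.05 there were 4, all lower in Mst1/2-KO. Ms4a1 read 7.15, 6.49, 6.46 and 6.8 in WT and 6.41, 5.79, 5.83 and 6.14 in Mst1/2-KO (-0.68 ± 0.18, adjusted p = 0.0891). Its groups did not overlap, nor did those of Il7r and Cd3g, against 6.33% of all genes. Cd7 read 8.0, 6.71, 7.19 and 8.33 against 6.89, 6.82, 6.42 and 6.61 (-0.87 ± 0.24, adjusted p = 0.112), and without WT replicate 2, the array within the Mst1/2-KO range, it was -1.15 (adjusted p = 0.00581). The array left out for Cd7 was picked after its value was seen, so that call is no support. Il7r read 5.24, 5.81, 5.45 and 5.85 against 4.76, 5.11, 4.97 and 4.35 (-0.79 ± 0.26, adjusted p = 0.219), and Cd22 differed by -0.26 ± 0.10 (adjusted p = 0.358). NK members lay between -0.16 and 0.21. Of the companions Ccl5, a chemokine of NK and T cells, fell by 2.19 and Tnfrsf4 (OX40) fell by 0.97.

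The difference of the genotype effect between subsets was called for no member, against 0.559% of all genes, with 4 at an unadjusted p under 0.05. So the falls of Blk and Cd5 in CD8- DCs are not shown to differ from the effect in CD8+ DCs. For Blk the effect in CD8- minus that in CD8+ DCs was -1.33 ± 0.36 (adjusted p = 0.124; without WT CD8- replicate 1, -1.68 and adjusted p = 0.0011). For Cd7 it was 0.96 ± 0.34 (adjusted p = 0.294; without WT CD8+ replicate 2, 1.25 and adjusted p = 0.0422), for Cd5 -0.54 ± 0.19 (adjusted p = 0.297) and for Ms4a1 -0.53 ± 0.25 (adjusted p = 0.552). The arrays left out for Blk and Cd7 were picked after all runs were seen, so those calls are no support. Among the companions the difference was called for Grap2 (1.02), Cr2 (-1.57) and Ccl5 (1.2).

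In total DCs no member was called for the Mst1/2 genotype either, against 0.848% of all genes (0.316% higher and 0.532% lower), and 8 passed an unadjusted p under 0.05. Blk read 5.45, 5.78, 4.6 and 6.2 on the WT and 4.66, 4.29 and 5.08 on the Mst1/2-KO arrays (-0.83 ± 0.33, adjusted p = 0.312). Cd22 read 7.63, 8.06, 8.4 and 8.1 against 7.66, 7.0 and 7.86 (-0.54 ± 0.22, adjusted p = 0.335), and Ms4a1 5.51, 6.0, 6.3 and 6.5 against 5.84, 5.21 and 5.67 (-0.50 ± 0.23, adjusted p = 0.396). Cd5 differed by -0.39 ± 0.22 (adjusted p = 0.509). Of all members only Klrd1 had groups that did not overlap (-0.36 ± 0.13, adjusted p = 0.245), against 13.8% of all genes. The 4 genes that fell in CD8- DCs thus had differences below 0 here too, with overlapping groups and none called. Il7r read 7.22, 6.6, 7.21 and 7.18 against 6.75, 5.4 and 6.36 (-0.88 ± 0.29, adjusted p = 0.208), and Fcer2a 4.08, 4.23, 3.7 and 4.16 against 4.83, 4.2 and 5.35 (0.75 ± 0.24, adjusted p = 0.199).

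WT total replicate 1 set several of these values. On it Cd3e read 6.51 against 3.4 to 4.52 on the other WT arrays, Cd3g 6.62 against 2.76 to 3.56, Cd3d 6.08 against 3.94 to 4.05, Lat 6.48 against 5.07 to 5.16 and Cd2 5.88 against 4.17 to 4.51. The same array read Eomes at 5.22 against 3.27 to 3.55. Its mean over the 18 T companions was 4.9 against 4.41 to 4.6 on the others, and its B mean of 5.01 lay within theirs (5.0 to 5.2). With that array the genotype difference was 0.30 ± 0.59 for Cd3e and 0.43 ± 0.76 for Cd3g. Without it they were 0.93 ± 0.30 (adjusted p = 0.232) and 1.28 ± 0.24 (adjusted p = 0.0622), and Eomes alone was called, higher in Mst1/2-KO (0.65 ± 0.11, adjusted p = 0.0452). Among the companions Icos fell by 1.06 and Ccl5 by 1.49 in Mst1/2-KO total DCs.

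**Figure D4:**
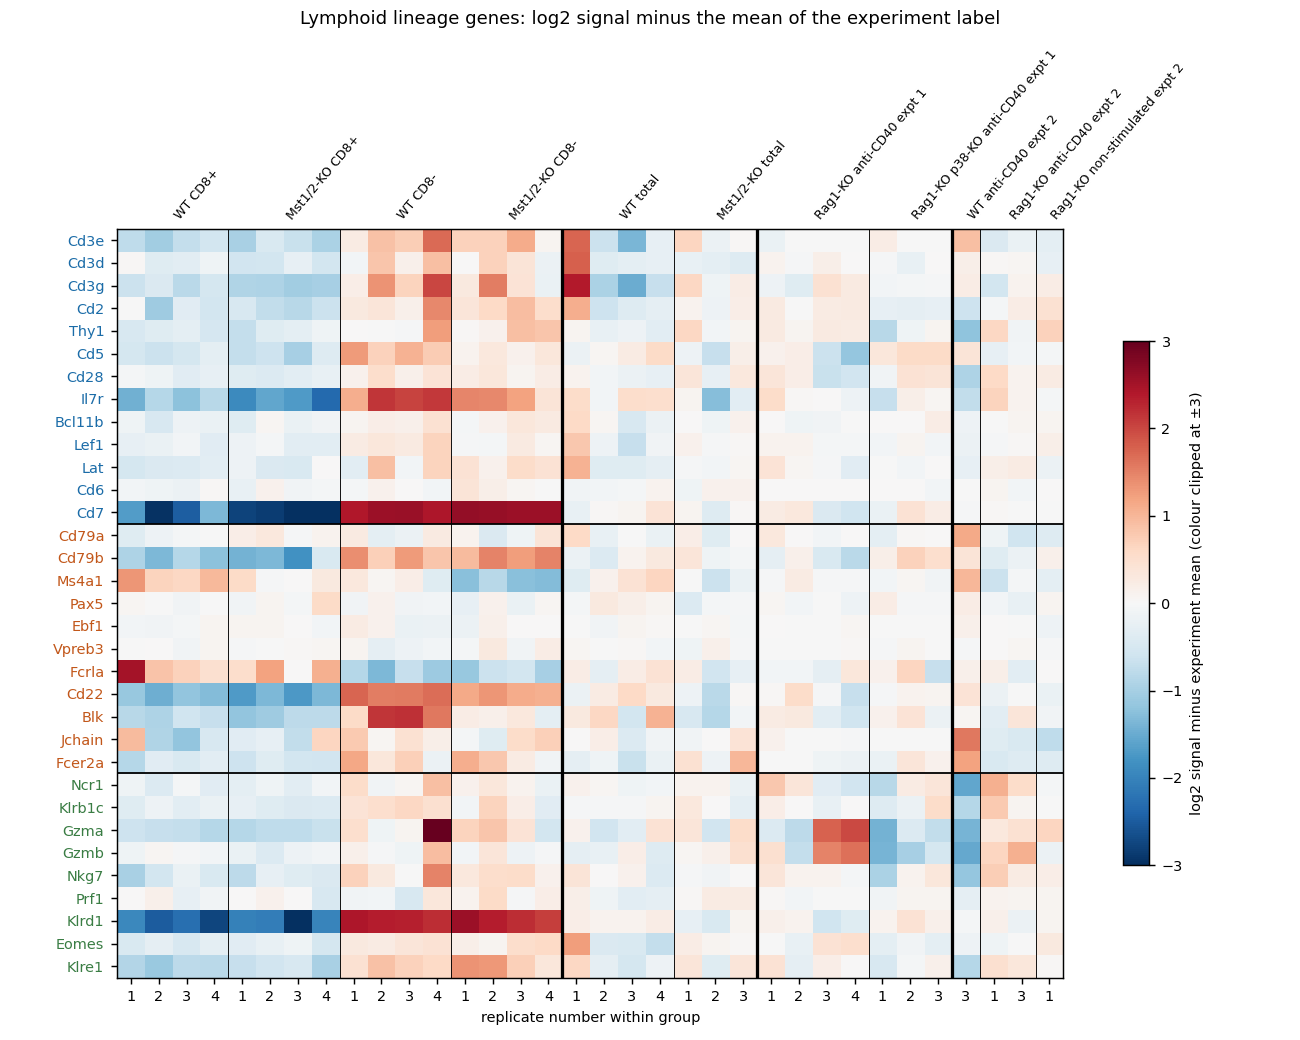
Log2 signal of each of the 33 genes (rows; blue T, orange B, green NK names) on each of the 34 arrays (columns, by group and replicate), minus the mean of that gene over the arrays of its experiment label. Red is above and blue below that mean, and the colour is clipped at 3. Thick lines part the experiment labels. The CD8- columns are red for Cd7, Il7r, Cd22 and Klrd1, and the single WT column of experiment 2 is red for Cd79a, Ms4a1, Jchain and Fcer2a and blue for the NK rows Ncr1, Gzma, Gzmb and Nkg7.

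Experiment 2 sets Rag1-KO DCs, from mice without mature T and B cells, beside WT DCs after anti-CD40. B genes were read lower and NK genes higher in the Rag1-KO arrays, and T genes went both ways. With 2 Rag1-KO arrays against 1 WT array, 5 members were called lower, 4 of 11 B (Jchain, Fcer2a, Cd79a, Ms4a1) and 1 of 13 T (Cd3e), against 0.365% of all genes (0.122% lower). No NK member was called, and 6 of 9 had an unadjusted p under 0.05. The median difference was -0.50 over B, 0.18 over T and 1.29 over NK members, compared with -0.009 over all genes. The groups did not overlap in 12 T, 9 B and 8 NK members, but with 1 array against 2 this held for 71.7% of all genes. WT is a single array, so nothing here shows how WT arrays vary, and Rag1 genotype and that array cannot be told apart.

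**Figure D5:**
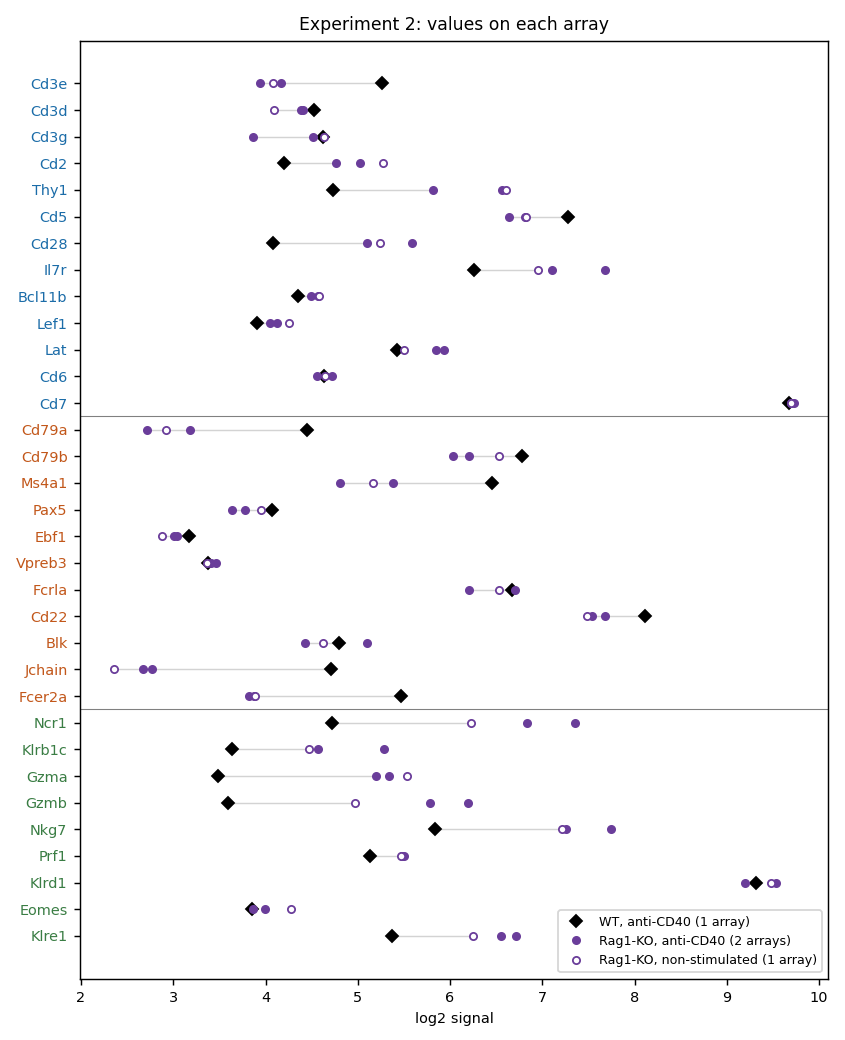
Log2 signal (x axis) of each of the 33 genes (y axis) on the 4 arrays of experiment 2. Black diamonds are the WT array, filled purple circles the 2 Rag1-KO arrays after anti-CD40 and open circles the non-stimulated Rag1-KO array. For 8 of 11 B genes all 3 Rag1-KO arrays lie below the WT array, and for 8 of 9 NK genes all 3 lie above it.

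Jchain read 4.71 on the WT array and 2.77 and 2.67 on the Rag1-KO arrays after anti-CD40, with 2.36 on the non-stimulated Rag1-KO array. The difference after anti-CD40 was -1.99 ± 0.10 (adjusted p = 0.00017), 3.98-fold lower in Rag1-KO. No RUNX, EBF core or octamer letters were found in its promoter, printed above. Fcer2a read 5.47 on the WT array against 3.82, 3.88 and 3.89 on the 3 Rag1-KO arrays in that order (-1.62 ± 0.19, adjusted p = 0.0133). Cd79a read 4.45 against 3.18, 2.71 and 2.92 (-1.51 ± 0.23, adjusted p = 0.0404). Ms4a1 read 6.45 against 4.81, 5.38 and 5.17 (-1.35 ± 0.22, adjusted p = 0.047). In these 4 genes the WT array stood at least 1 above the highest of the 3 Rag1-KO arrays, whereas 24 of all 22180 genes did so.

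The other B genes moved less. Cd79b differed by -0.66 ± 0.34 (adjusted p = 0.435), Cd22 by -0.50 ± 0.38 (adjusted p = 0.614), Pax5 by -0.36 ± 0.14 (adjusted p = 0.292) and Ebf1 by -0.15 ± 0.08 (adjusted p = 0.464), and all 3 Rag1-KO arrays lay below WT for each of them. Fcrla, Blk and Vpreb3 had Rag1-KO arrays on both sides of the WT array. All 3 Rag1-KO arrays lay below the WT array in 8 of 11 B members, 3 of 13 T members and 0 of 9 NK members, against 28.9% of all genes.

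Among T genes Cd3e read 5.26 on the WT array and 3.94, 4.17 and 4.08 on the Rag1-KO arrays (-1.21 ± 0.15, adjusted p = 0.0159). The other CD3 chains had smaller differences, -0.14 ± 0.12 for Cd3d (adjusted p = 0.673) and -0.43 ± 0.34 for Cd3g (adjusted p = 0.626). In contrast 3 T members were at least 1 higher in Rag1-KO and uncalled, against 0.586% of all genes at least 1 higher. Thy1 read 4.73 on the WT array against 6.56, 5.82 and 6.61 on the Rag1-KO arrays (1.46 ± 0.37, adjusted p = 0.145). Cd28 read 4.08 against 5.59, 5.1 and 5.24 (1.26 ± 0.45, adjusted p = 0.264), and Il7r 6.26 against 7.68, 7.11 and 6.95 (1.13 ± 0.40, adjusted p = 0.26). Cd7, which parted the DC subsets, read 9.67 against 9.73, 9.7 and 9.7. Cd5 lay lower in Rag1-KO (-0.55 ± 0.49) and Cd2 higher (0.69 ± 0.15), neither called (adjusted p = 0.665 and 0.102). Lat, Bcl11b, Lef1 and Cd6 differed by 0.01 to 0.46.

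All 9 NK members had differences above 0, and 6 were at least 1 higher in Rag1-KO, against 0.586% of all genes. Gzmb read 3.59 on the WT array against 5.78, 6.2 and 4.97 on the Rag1-KO arrays (2.4 ± 0.84, adjusted p = 0.258). Ncr1 read 4.72 against 7.36, 6.83 and 6.23 (2.37 ± 0.62, adjusted p = 0.153). Every Rag1-KO array lay above the WT array for both genes. Gzma read 3.49 against 5.2, 5.34 and 5.53 (1.78 ± 1.08, adjusted p = 0.516), and Nkg7 5.84 against 7.74, 7.26 and 7.21 (1.66 ± 0.45, adjusted p = 0.165). Klrb1c read 3.64 against 5.28, 4.57 and 4.47 (1.29 ± 0.38, adjusted p = 0.193), and Klre1 5.37 against 6.71, 6.55 and 6.25 (1.26 ± 0.30, adjusted p = 0.124). The RUNX letters described above, on either strand, were in the promoters of all 6 of these genes. They were also in that of Prf1 but not in that of Eomes, and Klrd1 had no promoter at hand. A link between the letters and these differences was not tested. Prf1 differed by 0.36 ± 0.11 (adjusted p = 0.189), Eomes by 0.08 ± 0.27 and Klrd1, the gene with the largest difference between DC subsets in WT, by 0.04 ± 0.31 (adjusted p = 0.933 and 0.971). All 3 Rag1-KO arrays lay above the WT array in 8 of 9 NK, 8 of 13 T and 0 of 11 B members, against 27.2% of all genes.

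These calls turn on where the spread comes from. The test pooled it with the 7 arrays of experiment 1, where all 5 called genes held 1 value on several arrays (Cd3e on 5, Jchain on 4, Cd79a and Ms4a1 on 3, Fcer2a on 2). With the 4 arrays of experiment 2 alone only Jchain was called (adjusted p = 0.0475). With the 7 total DC arrays in place of experiment 1, a setting chosen after seeing the data, Jchain was lower (adjusted p = 0.0125), Ncr1 (adjusted p = 0.00355) and Gzmb (adjusted p = 0.00672) were higher, and the other 4 were not called.

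Of 20 NK companions, 16 had differences above 0 with a median of 0.62 and none was called, the largest being the granzyme Gzmc (3.04, adjusted p = 0.122), the death ligand Fasl (2.2, adjusted p = 0.0948) and Il18rap (1.83, adjusted p = 0.0673). Of 18 T companions only Prkcq, a kinase of T cell receptor signalling, was called, higher by 1.23 (adjusted p = 0.0363), and 15 lay above 0 (median 0.21). Of 18 B companions 11 lay below 0 and none was called (median -0.22). Among markers of other cells, 7 of 8 DC markers lay below 0 (mean over the list 10.43 on the WT array, 10.14 and 10.26 on the Rag1-KO arrays), and 7 of 8 plasmacytoid DC markers lay above 0 (median 0.47), none of them called. The myeloid genes S100a8 and S100a9 lay 2.47 and 1.69 above WT, uncalled. Their part in these differences was not tested.

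Within Rag1-KO DCs of experiment 2, anti-CD40 (2 arrays) against no stimulation (1 array) called no member, against 0.0361% of all genes (0.0271% higher and 0.00902% lower), and 3 members had an unadjusted p under 0.05. Those were Jchain (0.35 ± 0.10, adjusted p = 0.205), Cd2 (-0.38 ± 0.15, adjusted p = 0.326) and Cd3d (0.30 ± 0.12, adjusted p = 0.352). Gzmb was the only member to differ by at least 1 (5.78 and 6.2 against 4.97, 1.03 ± 0.84, adjusted p = 0.673), against 0.424% of all genes at least 1 higher. The lone array lay outside the range of the other 2 in 9 T, 7 B and 8 NK members, against 70% of all genes. The mean over the B members was 4.52 on the non-stimulated and 4.5 and 4.54 on the stimulated Rag1-KO arrays, with 5.28 on the WT array.

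In experiment 1, where both genotypes lacked Rag1 and both were stimulated, no gene of 22180 was called for the p38-KO label (0% of all genes), and 5 members had an unadjusted p under 0.05. Gzmb read 4.86, 3.66, 5.87 and 6.03 on the Rag1-KO arrays and 2.98, 3.38 and 3.85 on the arrays labelled Rag1-KO p38-KO (-1.7 ± 0.59, adjusted p = 0.569). Gzma read 4.21, 3.84, 6.39 and 6.6 against 3.2, 4.2 and 3.87 (-1.5 ± 0.76, adjusted p = 0.606). For both granzymes Rag1-KO replicates 3 and 4 were the highest of the 7 arrays, as they were for Eomes (4.4 and 4.46). Not all NK members followed. Ncr1 read 6.33, 5.88, 5.19 and 4.95 on the Rag1-KO arrays, and Klrd1 9.48, 9.45, 8.74 and 8.97. Both were lowest of that group on replicates 3 and 4. Cd5 and Cd28 were also low on those 2 arrays (Cd5 7.17, 7.22, 6.38 and 5.86, Cd28 5.09, 4.95, 4.06 and 4.16). Cd5 read 7.37, 7.6 and 7.61 on the arrays labelled p38-KO (0.87 ± 0.34, adjusted p = 0.583). Cd79b read 6.25, 6.67, 6.07 and 5.72 against 6.69, 7.21 and 7.02, without overlap (0.80 ± 0.23, adjusted p = 0.506). Cd2 read 5.07, 4.78, 5.04 and 5.05 against 4.55, 4.53 and 4.54, also without overlap (-0.45 ± 0.08, adjusted p = 0.34), and Thy1 differed by -0.51 ± 0.21 (adjusted p = 0.59). Non-overlapping groups were seen in 2 T and 1 B member, against 7.48% of all genes. The NK median was -0.215, and the T and B medians were -0.05 and 0.04, compared with 0.0013 over all genes.

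Across the 9 comparisons 6 of the 33 members (Cd6, Pax5, Ebf1, Vpreb3, Gzmb and Prf1) were never called. Ms4a1 was called most often, in 4 comparisons. The calls of Cd79a and Jchain came from experiment 2 alone. The 6 uncalled genes ranged little within most groups, apart from Gzmb, which spanned 3.66 to 6.03 among the Rag1-KO arrays of experiment 1.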

How the data were processed

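The deposited values are log2 signals that the authors made with RMA in Partek 6.6, per the submitters' processing notes, from arrays of amplified RNA of FACS-sorted spleen DCs. Digits shared by all arrays of a probe set within an experiment label, and not across labels, showed that a constant was added per label, so levels were set side by side only within a label. Of 41155 probe sets 23521 had 1 gene symbol, 1814 several and 15820 none, and the probe set with the highest mean was kept for each of 22180 genes. Array medians lay between 4.11 and 4.2, and the number of arrays limits the precision.

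Group means were fitted with limma 3.58.1 (R 4.3.3, lmFit and eBayes) on all genes of the label, and over experiments 1 and 2 together for experiment 2, with Benjamini-Hochberg adjustment over all genes and a threshold of 0.05. Figures and promoters were made with Python 3.11.15. The fit was tested on simulated data: changes of 1 on the log2 scale were recovered for 98% of 100 altered genes in the genotype comparison of CD8- DCs, 99% between subsets in WT, 85% in total DCs, 87% in experiment 1 and 64% in experiment 2. Each simulation also gave 8 to 16 false calls. The simulated noise took each gene's own spread. In experiments 1 and 2 the identical values may make that spread too narrow and the recovery too high.

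Members and companion lists were chosen with earlier results of these data known. Every member is named. Values for each array are given where a member was called, or differed by at least 1 against a lone array, and up to 4 called companions per list and comparison are named. A few further members were chosen after their values were seen. Same-numbered arrays deviated together between subsets (correlations of 0.186 to 0.421 in WT and 0.159 to 0.28 in Mst1/2-KO) and in experiment 1 (0.135 to 0.235). The main fits did not pair them, and the replicate number was used only as a block in an alternative fit. Alternatives were quantile and cyclic loess normalization, a filter on low signals, the mean of a gene's probe sets, a trended robust eBayes, the replicate block, fewer arrays in the fit and each array of the groups compared left out, apart from lone arrays. Promoters of Thy1, Klrd1, Cd2, Cd7, Ms4a1, Cd6, Cd79b, Cd28 and Blk were not used here.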

Additional observations from a re-analysis of the deposited data

Results flagged for a closer look

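An array far from the other 3 of its group was seen in 18 of 198 groups of members and arrays tested, where chance gives about 1 in 20, or 9.9. WT total DC replicate 1 was high for Cd3d (6.08, others 3.94 to 4.05), Lat (6.48, others 5.07 to 5.16) and Eomes (5.22, others 3.27 to 3.55). WT CD8- DC replicate 4 was high for Gzma (8.68, others 4.48 to 5.12), Thy1 (6.76, others 5.45 to 5.51) and Cd2 (6.24, others 4.94 to 5.16). WT CD8- DC replicate 1 was low for Il7r (7.77, others 8.7 to 8.82), and WT total DC replicate 2 was low for the same gene (6.6, others 7.18 to 7.22). WT total DC replicate 4 was high for Klrb1c (4.4, others 4.27 to 4.28). Mst1/2-KO CD8+ DC replicate 3 was low for Klrd1 (6.29, others 7.27 to 7.36) and high for Cd3d (4.09, others 3.76 to 3.79). Mst1/2-KO CD8- DC replicate 2 was high for Ms4a1 (5.0, others 4.54 to 4.58).

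The other 6 came from the Rag1-KO arrays of experiment 1, where identical values on several arrays make narrow groups. Replicate 1 was low for Cd3e (4.46, others all 4.66) and high for Jchain (3.93, others 3.76 to 3.78). Replicate 2 was low for Cd2 (4.78, others 5.04 to 5.07) and Thy1 (5.58, others 5.76 to 5.77) and high for Ms4a1 (6.07, others all 5.8). Replicate 4 was high for Vpreb3 (3.66, others all 3.61).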

How the results depend on the processing

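None of the 54 calls of members reversed under the alternatives run, and 41 held under all in which their gene was tested. In the Rag1-KO comparison of experiment 2 the 5 called members became 0 with genes above the median gene only (Jchain, Cd79a and Fcer2a lay below it and were not tested), 1 with the arrays of experiment 2 alone and 3 (2 higher, 1 lower) with the spread from the total DC arrays, an alternative chosen after seeing the data; the cause was not tested. Leaving out each array in turn gave 0 to 1 called members for the genotype in CD8+ DCs, 4 to 5 in CD8- DCs, 0 to 1 for its difference between subsets, 0 to 1 in total DCs, 21 to 25 between subsets in WT, 16 to 21 in Mst1/2-KO, and 0 for p38. The Rag1-KO and anti-CD40 comparisons had only 2 such runs each, and the lone array was never left out. How far their results rest on that array was therefore not tested. With the replicate block Thy1 (WT, adjusted p = 0.0296) and Bcl11b (Mst1/2-KO, adjusted p = 0.045) were gained between subsets, for 25 and 22 called members, and no other call changed. For the genotype comparisons the arrays share only a number (correlations of -0.084 to 0.101 in CD8+, -0.03 to 0.103 in CD8- and 0.059 to 0.181 in total DCs), and the block gave 0, 4 and 0 called members. Fitting only the 2 groups compared ended the WT calls of Cd3d, Lat, Ncr1 and Gzma and the Mst1/2-KO call of Klrb1c, and gained Gzma in Mst1/2-KO. A trended robust eBayes ended the calls of Gzma in WT and of Ms4a1 in the Rag1-KO comparison, and quantile normalization the latter too. Over all genes, the Rag1-KO comparison called 81 genes and 4, 7 and 23 under the same 3 alternatives. The genotype called 197 genes in CD8+ DCs and 123 with the 2 groups alone, 124 for its difference between subsets and 211 with the block, and 188 in total DCs and 340 with the trended robust eBayes, 296 above the median gene and 108 with the block. Anti-CD40 called 8 genes and between 0 and 17. Of 351 lineage medians under alternatives 21 moved by more than the spread between arrays. No paired analysis was possible for experiment 2 because its groups share too few replicate numbers. Low signals have no detection measure here, which limits what can be said of them.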
